A study of Ambystoma mexicanum with 198 samples.

Results

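The comparison set the growing limb bud of the axolotl (*Ambystoma mexicanum*) at 14 days post-amputation (DPA) against the bud at 10 DPA. Both groups are regenerating forelimbs amputated at the mid zeugopod, the forearm segment of radius and ulna, in animals aged 6 to 10 months, with no drug or genetic treatment and with the bones left untrimmed. All arrays labelled 10 or 14 DPA were used, 10 of each, which is 20 of the 198 arrays and 20 time points analysed here. Each array held RNA of the distal-most 1 mm of a single limb tip, and because the limbs that shared an animal are not given, p-values measure the spread between tissue samples. In the study's staging, limbs at 10 DPA were early buds and those at 14 DPA fell in the period of cone-shaped medium buds.

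A regeneration bud, or blastema, is a mound of undifferentiated connective tissue cells beneath a wound epidermis. In the medium bud its cells divide while signals pass between epidermis and mesenchyme, and FGF ligands are known to sustain outgrowth in developing limbs. Homeobox and T-box transcription factors assign position along the limb, and cartilage of the new skeleton appears first at the base of the bud. The tip samples mix all of these tissues with stump muscle, bone, nerve, vessels and blood cells, so a lower level in bulk RNA cannot tell fewer cells of a type from less RNA per cell.

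Transcript abundance was measured on a custom *Ambystoma* GeneChip as log2 intensity, where a difference of 1 is a 2-fold change. A probe passed when limma's Benjamini-Hochberg adjusted p was under 0.05 over 20,035 probes and its means differed by at least 0.58 (1.5-fold). Differences are 14 minus 10 DPA, followed by the standard error (SE), and a probe that passed is said to have risen or fallen. Array medians lay between 5.73 and 5.87, and arrays of a time point correlated at r = 0.966 to 0.991 across probes, which are not independent replicates. The labelled tissue was borne out by *col1a1*, the connective tissue collagen (12.60 ± 0.31 and 12.76 ± 0.49, SD, n = 10 each), and by the epithelial keratin gene *krt8* (14.16 ± 0.19 and 14.14 ± 0.14). The probe of *prrx1*, a mesenchymal limb homeobox gene, was dim at both times (4.47 ± 0.41 and 4.58 ± 0.26). The basal keratin gene *krt5*, named by the study's supplement, ran from 5.75 to 14.23 at 10 DPA and from 5.67 to 14.08 at 14 DPA, so that single samples differed far more than the time points (−0.30 ± 1.19, adjusted p = 0.951). Its probe was dim at 0 DPA (4.06 ± 0.20). The mean went from 9.59 to 12.17 in replicates 1 to 5 and from 10.84 to 7.66 in replicates 6 to 10.

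Between 10 and 14 DPA, 130 probes passed, 0.649% of those tested, with 80 higher (0.399%) and 50 lower (0.250%) at 14 DPA. A gene symbol was paired with 87 of them, for 52 genes that rose and 29 that fell. The largest increases among genes with a symbol were, in order, those of *matn4*, *col2a1*, *mycn*, *lhx2*, *enpp2*, *adamtsl2*, *lhx9*, *fbln1*, *dpp6* and *fgf8*. The largest decreases were those of *lgals1*, *lmo7*, *phf6*, *plek2* and *eppk1*. Of the 130 probes, 31 changed at least 2-fold. The ranges of both groups were apart for 3 of the 80 probes that rose and for 0 of the 50 that fell, against 6 of 20,035 (0.0299%) over all probes.

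The count depended on single arrays. Leaving out 1 array gave 67 to 185 probes, with 39 to 117 higher and 28 to 80 lower. The count dropped to 67, 84, 68 and 83 without 10 DPA replicate 1, 6, 7 or 10 and to 86, 84, 71 and 74 without 14 DPA replicate 2, 3, 5 or 8. Skeletal muscle genes had their highest mean in replicate 2 at 10 DPA and replicate 7 at 14 DPA, and without these 2 arrays the count was 204, including 124 of the 130 probes.

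*mycn*, a MYC family transcription factor known for driving cell growth and division, separated the time points completely. Its level ran from 7.42 (median 8.51) to 9.49 at 10 DPA and from 9.68 (median 10.13) to 10.75 at 14 DPA. The lowest 14 DPA sample therefore lay above the highest 10 DPA sample. The difference was 1.59 ± 0.25 (limma adjusted p = 0.00414), a 3.02-fold rise. It was 1.27 among the first 5 replicates and 1.92 among the last 5. In the 20 fits that left out 1 array the adjusted p was between 0.00259 and 0.0110.

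The changes of cell cycle genes were small and mostly in the same direction. Of 72 mitosis genes, 5 rose (6.94%), 0 fell and 67 did not pass, against 0.399% of all probes higher. The median difference of the list was 0.32, against 0.0052 over all probes, and 65 of its 72 members were above 0. Of 53 genes of DNA replication and nucleotide supply, limma called 0 in either direction. Their median difference was 0.29 with 51 of 53 above 0, and 37 were higher and 0 lower at an unadjusted p under 0.05, where 9.05% of all probes were higher. The methods' *t* test at p of 0.01 with 1.5-fold called 2 of them higher. Over all probes tested it called 114 higher and 83 lower.

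Among the mitosis genes that rose, *kif2c*, a kinesin that takes apart microtubules at the spindle, ran from 6.91 (median 7.30) to 7.65 at 10 DPA and from 7.32 (median 8.00) to 8.32 at 14 DPA. In 9 of the 10 samples of 14 DPA it was above every 10 DPA sample (0.62 ± 0.12, adjusted p = 0.0110). *cdc25a*, the phosphatase that releases cyclin-dependent kinases for entry into S phase, went from 8.64 ± 0.24 to 9.24 ± 0.24 (adjusted p = 0.00737). The mitotic kinase gene *melk* rose by 0.63 ± 0.13 and *cks1b*, a subunit of cyclin-dependent kinase complexes, by 0.66 ± 0.16 (adjusted p = 0.0184 and 0.0396). The fifth was *smc2*, a condensin subunit, at 0.60 ± 0.10 (adjusted p = 0.00472).

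These differences lay just past the 1.5-fold limit. With no fold limit, under which 2.03% of all probes passed, 16 mitosis genes were higher, with a 2-fold limit 0, and leaving out 1 array gave 2 to 9, lowest without 10 DPA replicate 1 or 6 or 14 DPA replicate 10 and highest without 14 DPA replicate 7. *cks1b* passed in 8 of the 20 such fits (adjusted p of up to 0.0751 without 14 DPA replicate 5), *cdc25a* in 14, *smc2* in 18, *kif2c* in 19 and *melk* in 20. In 1 limma fit of all arrays, *melk* and *smc2* did not pass (adjusted p = 0.132 and 0.0765). *pcna*, the sliding clamp of DNA polymerase and the brightest replication gene, ran from 11.42 to 12.19 at 10 DPA and from 11.79 to 12.42 at 14 DPA (0.39 ± 0.10, adjusted p = 0.0559). It differed by 0.09 in replicates 1 to 5 and by 0.68 in replicates 6 to 10. Genes of DNA repair outside the named lists also passed, here picked after their values were seen. *blm*, a helicase that resolves recombination intermediates, was above every 10 DPA sample in 9 of 10 samples (5.56 ± 0.24 and 6.34 ± 0.26, adjusted p = 0.00305). *brca1*, of homologous recombination, rose by 0.75 ± 0.13 (adjusted p = 0.00737).

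Limb patterning genes were among the largest increases. Of 36 such transcription factor genes measured, 4 were higher (11.1%, against 0.399% of all probes), 0 lower and 32 not past the threshold. The list's median difference was 0.02, close to the 0.0052 of all probes. The change was therefore carried by a few members. *lhx2*, a LIM homeobox gene of limb outgrowth in chick, ran from 4.83 (median 5.77) to 6.44 at 10 DPA and from 6.22 (median 7.33) to 7.87 at 14 DPA. Only the lowest 14 DPA sample fell inside the 10 DPA range. It rose by 1.52 ± 0.20 (adjusted p = 0.00243), or 2.87-fold.

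*lhx9*, a related LIM homeobox gene with overlapping roles in the mouse limb, ran from 3.79 (median 4.61) to 5.50 and from 5.27 (median 5.83) to 7.02. It was above all 10 DPA samples in 8 of 10 samples and rose by 1.33 ± 0.25 (adjusted p = 0.0125). Replicates 1 to 5 changed by 1.89 and replicates 6 to 10 by 0.78, a gap that the interaction test did not call (adjusted p = 0.412). *tbx5*, the T-box gene that marks forelimbs, ran from 5.12 (median 6.61) to 7.75 and from 7.09 (median 7.53) to 8.16. The groups overlapped, with 3 samples of 14 DPA above every 10 DPA sample (1.00 ± 0.24, adjusted p = 0.0371).

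*gli3*, a transcription factor of hedgehog signaling that limits digit number in mouse, went from 6.71 ± 0.39 to 7.46 ± 0.41 (adjusted p = 0.0270). While *lhx2* and *lhx9* passed in all 20 fits that left out 1 array, *gli3* passed in 14 and *tbx5* in 9. The adjusted p of *gli3* was at most 0.0567 (without 14 DPA replicate 5) and that of *tbx5* at most 0.0724 (without 10 DPA replicate 1). A second *tbx5* probe differed by 0.71 ± 0.19 and narrowly missed the threshold (adjusted p = 0.0563). Among members that did not pass were *nr2f1* (0.70, adjusted p = 0.0692) and the distal genes *dlx6* (0.33, adjusted p = 0.646) and *hoxa13* (0.21, adjusted p = 0.0398, under the fold limit).

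**Figure D1:**
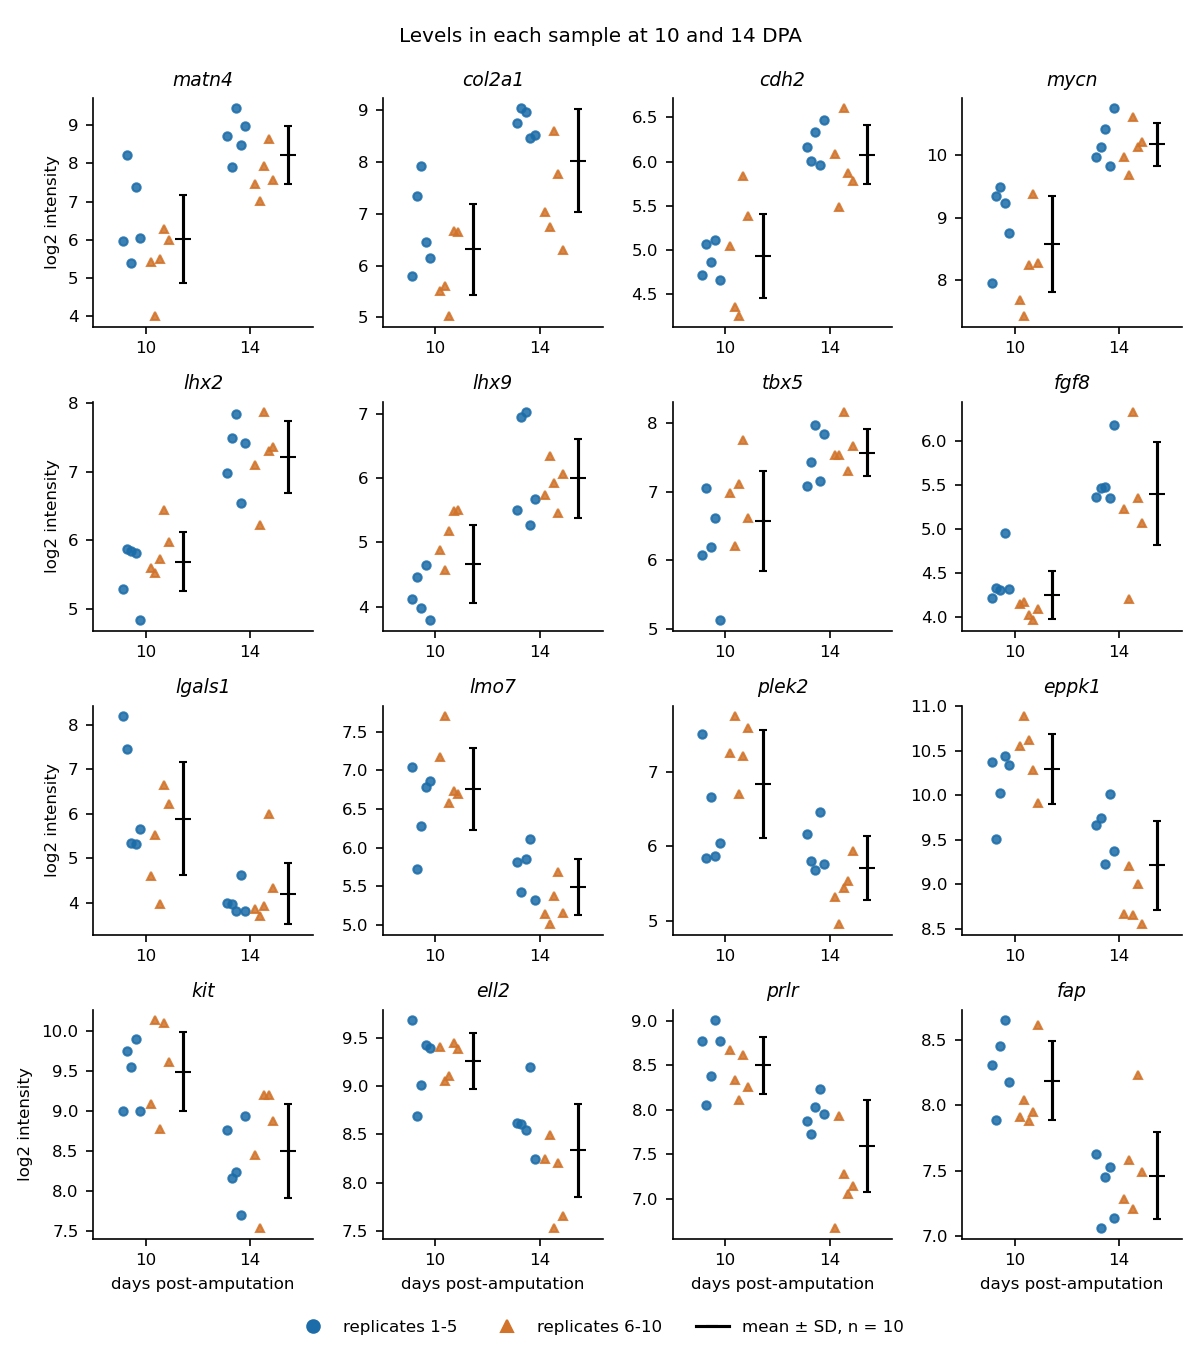
Log2 intensity (vertical axes, each with its own range) in every sample at 10 and 14 DPA for 8 genes that rose (upper rows) and 8 that fell (lower rows). Circles are replicates 1 to 5, triangles replicates 6 to 10, and black bars the mean ± SD of 10 samples. For *mycn* every 14 DPA sample lies above all 10 DPA samples, while *fgf8* has 1 sample of 14 DPA, at 4.20, among those of 10 DPA.

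FGF signaling showed the ligand gene *fgf8*, a membrane partner and a feedback inhibitor higher. *fgf8*, whose protein sustains outgrowth of the limb bud, ran from 3.96 (median 4.19) to 4.95 at 10 DPA and from 4.20 (median 5.36) to 6.33 at 14 DPA. In 9 samples of 14 DPA it exceeded every 10 DPA sample, and the exception was replicate 7. The rise was 1.15 ± 0.19 (adjusted p = 0.00586), nearly equal in both sets of replicates (1.15 and 1.16). It started from a dim level, with means of 4.25 ± 0.27 at 10 DPA and 4.17 ± 0.14 at 0 DPA. *flrt3*, encoding a membrane protein that binds FGF receptors, ran from 5.64 to 7.58 and from 7.09 to 8.44 (0.95 ± 0.22, adjusted p = 0.0307).

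*dusp6*, a phosphatase that switches off the ERK kinases downstream of FGF receptors, was read from a probe that the platform annotation leaves unnamed and the study's supplement pairs with this gene. It ran from 7.41 (median 7.62) to 7.92 and from 7.48 (median 8.57) to 9.41, with 8 samples of 14 DPA above every 10 DPA sample and replicates 6 and 7 within the 10 DPA range. The rise was 0.99 ± 0.19 (adjusted p = 0.0125) and passed in all 20 fits that left out 1 array. *spry1*, which encodes an intracellular inhibitor of FGF signaling, went from 6.30 ± 0.37 to 6.85 ± 0.37, a difference of 0.56 ± 0.16 that missed both limits (adjusted p = 0.0717). In all, 2 of 21 FGF signaling genes rose (9.52%, against 0.399% of all probes) and 0 fell, with a list median of 0.03. With *dusp6* counted, 3 of 22 rose and the median was 0.04. The call of *flrt3* was lost in 5 of the 20 fits that left out 1 array, with a highest adjusted p of 0.0620 without 14 DPA replicate 5.

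A few genes of retinoic acid, hedgehog, WNT and TGF-beta signaling passed the threshold. *crabp2*, a carrier of retinoic acid into the nucleus, ran from 9.71 (median 10.63) to 11.35 and from 10.86 (median 11.51) to 11.93, with 8 of 10 samples of 14 DPA above the 10 DPA range (0.85 ± 0.16, adjusted p = 0.0140). *disp1*, whose protein releases hedgehog ligands from the producing cell, went from 7.43 ± 0.25 to 8.09 ± 0.36 (adjusted p = 0.0152). A second, dimmer probe of *disp1* differed by 0.01 (adjusted p = 0.969). *crabp2*, *disp1* and *gli3* were the 3 of 36 hedgehog, Notch and retinoic acid genes that rose (8.33%, against 0.399% of all probes), and 0 fell. The list's median was −0.04.

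Of 42 WNT genes, 1 passed (2.38%, against 0.399% of all probes higher). This was *apcdd1*, a membrane inhibitor of WNT signaling (7.18 ± 0.36 and 8.03 ± 0.39, adjusted p = 0.0125). Of 44 BMP and TGF-beta genes, 1 rose (2.27%) and 1 fell, against 0.399% and 0.250% of all probes. *tgif1*, a corepressor of TGF-beta responses, rose by 0.59 ± 0.14 (adjusted p = 0.0382). *pmepa1*, a TGF-beta target that damps the same pathway, fell by 0.67 on the log2 scale (SE 0.17, adjusted p = 0.0398), and its second probe passed too. Both calls were held in 6 of 20 fits that left out 1 array, with highest adjusted p of 0.0724 for *tgif1* (without 14 DPA replicate 8) and 0.0798 for *pmepa1* (without 10 DPA replicate 1).

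Cartilage genes gave the largest increases among probes with a symbol. *matn4*, a matrilin of cartilage matrix, ran from 4.00 (median 5.99) to 8.23 at 10 DPA and from 7.02 (median 8.21) to 9.44 at 14 DPA. In all, 8 of the 10 DPA samples lay below every 14 DPA sample. The rise of 2.19 ± 0.41 (adjusted p = 0.0110, but 0.0739 in 1 fit of all arrays) was 4.57-fold and nearly the same in both sets of replicates (2.10 and 2.29). *col2a1*, the main collagen of cartilage, ran from 5.02 (median 6.31) to 7.93 and from 6.31 (median 8.50) to 9.04. It rose by 1.71 ± 0.40 (adjusted p = 0.0314), with 6 samples of 14 DPA above the 10 DPA range.

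*cdh2*, N-cadherin, which joins mesenchymal cells as they condense, ran from 4.25 (median 4.95) to 5.84 and from 5.49 (median 6.04) to 6.60 (1.14 ± 0.17, adjusted p = 0.00406). The proteoglycan gene *ogn* went from 9.47 ± 0.58 to 10.23 ± 0.26 (0.76 ± 0.19, adjusted p = 0.0446). These 4 were the members past the threshold among 25 cartilage genes (16.0%, against 0.399% of all probes higher), with 0 lower and a list median of 0.10. The collagen IX genes, whose chains sit on the collagen II fibril, varied widely between samples and did not pass. *col9a3* ran from 4.62 to 6.89 and from 4.39 to 8.80 (0.95 ± 0.47, adjusted p = 0.355), *col9a2* differed by 0.82 ± 0.41 and *col9a1* by 0.55 ± 0.47.

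*chodl* and *cilp* differed by 0.06 and 0.12 and did not pass (adjusted p = 0.722 and 0.837). *lect1* was not analysed here. The median of the cartilage list was 0.40 among replicates 1 to 5 and 0.08 among replicates 6 to 10. *matn4* and *cdh2* passed in all 20 fits that left out 1 array, *col2a1* in 12 (adjusted p of 0.0611 without 14 DPA replicate 5) and *ogn* in 5 (0.0829 without 10 DPA replicate 1). The second probes of *col2a1* and *cdh2* were dim and differed by 0.05 and −0.07.

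Genes of soft connective tissue matrix changed in both directions. *fbln1*, fibulin-1 of elastic and basement membrane matrix, ran from 6.41 (median 7.40) to 8.26 and from 8.17 (median 8.46) to 9.39 (1.22 ± 0.21, adjusted p = 0.00737). *thbs4*, a matrix glycoprotein of tendon and muscle attachments, went from 9.63 ± 0.69 to 10.57 ± 0.30 (adjusted p = 0.0371), a call held in 7 of 20 fits that left out 1 array (adjusted p of up to 0.0708 without 10 DPA replicate 1). *fap*, a surface protease of activated fibroblasts, ran from 7.88 (median 8.11) to 8.65 and from 7.06 (median 7.47) to 8.23, lower in 9 samples of 14 DPA than in any of 10 DPA. It fell by 0.73 on the log2 scale (SE 0.14, adjusted p = 0.0112). These were 2 of 45 interstitial matrix genes higher (4.44%) and 1 lower, against 0.399% and 0.250% of all probes, with a median of 0.09.

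The 3 chains of collagen VI, the beaded-filament collagen around cells, rose by similar amounts. The study lists all 3 as changed in the interval that ended at 10 DPA. For most matrix genes of that interval it reports the lowest mean of the series at 10 DPA. Means at 0 DPA were 12.40 for *col6a1*, 12.47 for *col6a2* and 12.83 for *col6a3*. *col6a1* ran from 8.92 (median 10.12) to 11.01 and from 10.28 (median 10.80) to 11.31 (0.74 ± 0.18, adjusted p = 0.0396). *col6a2* and *col6a3* differed by 0.71 ± 0.18 and 0.74 ± 0.19 (adjusted p = 0.0417 and 0.0463). They were the 3 of 25 basement membrane and collagen VI genes that passed (12.0%, against 0.399% of all probes higher), with a list median of 0.07. Their calls sat near the limit and were held in 6, 6 and 4 of the 20 fits that left out 1 array, with adjusted p of up to 0.0773, 0.0813 and 0.0873 without 14 DPA replicate 5.

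Of 17 metalloproteinase and TIMP genes, 1 passed (5.88%, against 0.399% of all probes higher). This was *mmp16*, a membrane-bound metalloproteinase (0.69 ± 0.17, adjusted p = 0.0398). It was held in 7 of 20 such fits, with adjusted p = 0.0799 without 10 DPA replicate 1. Periostin (*postn*), a matrix protein of connective tissue, was noted after its values were seen: its 3 probes differed by 1.09, 1.00 and 0.93, and the first passed (adjusted p = 0.0303) but lost its call in 7 of 20 such fits (adjusted p of up to 0.0606 without 10 DPA replicate 7).

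Other secreted or membrane proteins were among the 12 largest increases. *enpp2*, autotaxin, which makes the lipid signal lysophosphatidic acid, ran from 5.03 (median 5.87) to 7.60 and from 6.75 (median 7.42) to 8.87 (1.51 ± 0.31, adjusted p = 0.0171). *lpar1*, a receptor of that lipid and chosen after its value was seen, rose by 0.75 (adjusted p = 0.0364). *adamtsl2*, a secreted glycoprotein that binds fibrillin microfibrils, ran from 4.92 (median 5.33) to 6.36 and from 5.69 (median 6.87) to 7.67. It was above every 10 DPA sample in 9 of 10 samples (1.42 ± 0.20, adjusted p = 0.00353).

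*dpp6*, an auxiliary subunit of potassium channels, also exceeded the 10 DPA range in 9 of 10 samples (3.93 ± 0.36 and 5.14 ± 0.42, adjusted p = 0.00243), but its 2 other probes differed by −0.02 and −0.12. All 3 probes were dim at 10 DPA, the other 2 with means of 3.83 and 3.92. *olfml1*, of the olfactomedin family, rose by 1.13 ± 0.25 (adjusted p = 0.0260) and lost its call without 10 DPA replicate 1 or 7, with adjusted p of up to 0.0543. Of the 35 called genes with several probes, 23 had all probes on the same side of 0, and 0 had probes called in opposite directions.

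Among the genes with a symbol that fell, *lgals1*, galectin-1, had the largest difference. It ran from 3.97 (median 5.60) to 8.19 at 10 DPA and from 3.70 (median 3.95) to 5.99 at 14 DPA, with 5 samples of 14 DPA below the 10 DPA range. It fell by 1.69 on the log2 scale (SE 0.43, adjusted p = 0.0450), a call held in 4 of 20 fits that left out 1 array (adjusted p of up to 0.0811, without 14 DPA replicate 5). A far brighter probe of the same gene differed by 0.01 ± 0.18, so the probes disagreed.

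*lmo7*, a LIM domain protein of adherens junctions, ran from 5.72 (median 6.75) to 7.70 and from 5.01 (median 5.40) to 6.11 and fell by 1.27 (SE 0.19, adjusted p = 0.00406). A second, brighter probe of *lmo7* fell by 0.69 (adjusted p = 0.00243). *eppk1*, epiplakin, which binds keratin filaments in epithelia, ran from 9.51 (median 10.36) to 10.89 and from 8.55 (median 9.22) to 10.02, with a decrease of 1.08 (SE 0.19, adjusted p = 0.00770). In all, 3 of its 4 probes passed, and the brightest differed by −0.54, under the fold limit (adjusted p = 0.0171).

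*plek2*, a pleckstrin family protein that acts at the actin-rich cell edge, ran from 5.84 (median 6.96) to 7.75 and from 4.95 (median 5.72) to 6.46 and fell by 1.14 (SE 0.25, adjusted p = 0.0243). *lima1*, an actin-bundling protein, fell by 0.88 (adjusted p = 0.0335). Its call was held in 11 of 20 fits that left out 1 array, with a highest adjusted p of 0.0672 without 14 DPA replicate 5. A far brighter probe of *lima1* differed by −0.25 ± 0.08 and did not pass (adjusted p = 0.105). *pdlim7*, a PDZ-LIM protein of actin filaments, fell by 0.96 overall (adjusted p = 0.0398), by −0.22 among replicates 1 to 5 and −1.69 among replicates 6 to 10, and its call was held in 7 of 20 such fits (adjusted p of up to 0.0747 without 14 DPA replicate 5). It was the 1 of the 130 probes that the interaction test called (adjusted p = 0.0231). Other genes also fell unequally without a call by that test. In replicates 1 to 5 and 6 to 10, *plek2* changed by −0.41 and −1.87, *eppk1* by −0.53 and −1.63 and *lmo7* by −0.83 and −1.70. *lgals1* (−2.34 and −1.03), *phf6* (−1.50 and −0.94) and *kit* (−1.08 and −0.89) fell more in replicates 1 to 5.

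*kit*, the receptor of stem cell factor, known in pigment and blood precursors, ran from 8.78 (median 9.59) to 10.14 and from 7.54 (median 8.61) to 9.20 (−0.98 ± 0.23, adjusted p = 0.0320). *prlr*, the prolactin receptor, ran from 8.06 (median 8.50) to 9.01 and from 6.67 (median 7.81) to 8.24, below every 10 DPA sample in 9 of 10 samples (−0.91 ± 0.18, adjusted p = 0.0148). *tlr7*, an endosomal sensor of RNA in immune cells, went from 5.95 ± 0.59 to 4.87 ± 0.60 (adjusted p = 0.0334). A brighter probe of *tlr7* differed by −0.83 ± 0.30 and did not pass (adjusted p = 0.175). The calls of *kit* and *tlr7* were held in 14 and 11 of the 20 fits, with adjusted p of up to 0.0617 without 10 DPA replicate 7 and 0.0672 without 14 DPA replicate 5.

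Nuclear and transport proteins completed the 12 largest decreases. *ell2*, an elongation factor of RNA polymerase II, ran from 8.69 (median 9.38) to 9.68 and from 7.53 (median 8.37) to 9.20 (−0.92 ± 0.17, adjusted p = 0.0105), and both of its probes passed. *phf6*, a nuclear zinc finger protein, went from 8.65 ± 0.45 to 7.43 ± 0.76 (adjusted p = 0.0209), while its second probe differed by 0.22. It was the 1 of 80 chromatin regulator genes that passed (1.25%, against 0.250% of all probes lower). The study names *phf6*, and *fap* above, among genes that increased in the interval ending at 10 DPA. *dync1h1*, the dynein heavy chain, went from 6.78 ± 0.56 to 5.84 ± 0.48 (adjusted p = 0.0352). Its brightest probe differed by 0.01, and the call was held in 13 of 20 fits (adjusted p of up to 0.0689 without 14 DPA replicate 5).

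**Figure D2:**
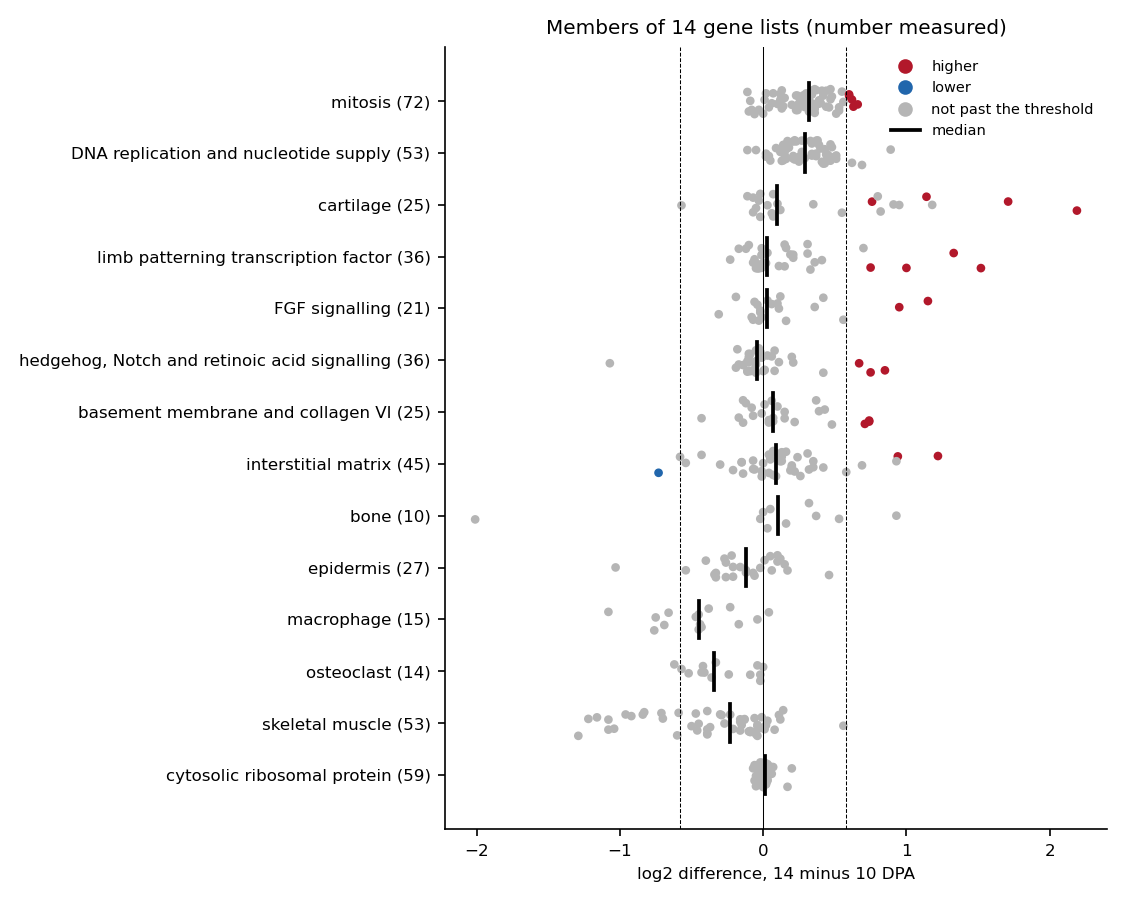
Log2 difference, 14 minus 10 DPA (horizontal axis), of each measured member of 14 gene lists (rows, number of genes in parentheses). Red and blue points passed as higher and lower, grey points did not pass, black bars are medians and dashed lines the 1.5-fold limit. Mitosis and DNA replication genes sit mostly right of 0 with medians of 0.32 and 0.29, cartilage and limb patterning genes have a few members far to the right, and ribosomal protein genes lie close to 0.

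Of 39 lists, 12 had a member past the threshold, and among the 27 without one were the markers of muscle, macrophages, osteoclasts and epidermis. Of 53 skeletal muscle genes limma called 0, with a median of −0.23, 45 members below 0, and 0 higher and 1 lower at an unadjusted p under 0.05 (9.05% and 5.83% of all probes). The *t* test at p of 0.01 with 1.5-fold also called 0. Their mean level ran from 4.68 (median 5.75) to 7.70 at 10 DPA and from 4.74 (median 5.28) to 7.05 at 14 DPA. Samples of both times thus spanned about the same range, and single samples of either time held much more muscle transcript than others.

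Of 15 macrophage genes limma called 0, with a median of −0.45, 0 higher and 4 lower at an unadjusted p under 0.05 (5.83% of all probes were lower), and 0 by the *t* test. Their mean ran from 8.78 to 9.91 and from 8.06 to 10.37, the highest in 14 DPA replicate 7. The bright macrophage protease gene *lgmn* differed by −0.23 ± 0.15 (adjusted p = 0.526), and the immune sensor *tlr7* above fell while this list's mean moved the same way. The part of these cells in the change of *tlr7* was not tested.

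Osteoclast genes, of the cells that resorb bone, varied widely between samples. Of 14 genes limma called 0, with a median of −0.34, 0 higher and 1 lower at an unadjusted p under 0.05 (9.05% and 5.83% of all probes), and 0 by the *t* test. *ctsk*, the collagen-cleaving cathepsin of osteoclasts, ran from 10.95 (median 12.07) to 13.14 at 10 DPA and from 7.91 (median 11.44) to 13.41 at 14 DPA (−0.62 ± 0.58, adjusted p = 0.697). Its lowest and highest levels were both at 14 DPA. *acp5*, tartrate-resistant acid phosphatase, differed by −0.36 ± 0.51, *calb1* by −0.42 ± 0.64, *tcirg1*, a subunit of the proton pump, by −0.52 ± 0.26 and *ostm1* by −0.24 ± 0.14. In replicates 1 to 5 and 6 to 10, *calb1* changed by −1.72 and 0.89 and *acp5* by −1.27 and 0.55. *ctsk* changed by −1.71 and 0.48, *tcirg1* by −1.13 and 0.10 and *ostm1* by −0.43 and −0.05. The pooled values of *calb1*, *acp5* and *ctsk* thus averaged changes of opposite sign. The interaction test did not call them (adjusted p = 0.211, 0.192 and 0.378). *mmp13*, a collagenase read from a probe that the study's supplement pairs with it, ran from 5.69 (median 7.06) to 9.09 and from 4.62 (median 5.68) to 7.58, a difference of −1.28 ± 0.42 that did not pass (adjusted p = 0.125).

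The mean of the osteoclast genes in replicates 1 to 5 ran from 7.74 to 8.28 at 10 DPA and from 6.73 to 7.72 at 14 DPA, with no overlap. In replicates 6 to 10 it ran from 7.86 to 8.77 and from 7.79 to 8.94. Such a gap between 5 and 5 samples was not particular to osteoclast genes. Means of immediate early genes were also apart in both sets, higher at 14 DPA in replicates 1 to 5 and lower in replicates 6 to 10. Those of DNA replication genes were apart in replicates 6 to 10 (8.30 to 8.66 and 8.72 to 9.06). The medians of the osteoclast genes were −0.81 and 0.01 in the 2 sets, and those of the macrophage genes −0.91 and −0.05, but the interaction test called 0 members of either list.

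Of 27 epidermis genes limma called 0 at its full threshold, with a median of −0.12. At an unadjusted p under 0.05, 1 was higher and 9 lower, against 9.05% and 5.83% of all probes, and the *t* test called 0. The mean of the list ran from 9.45 to 10.00 and from 9.43 to 9.99. *eppk1* was taken in this list by its brightest probe. Its other probes and *lmo7*, described above, fell by more than the median of these markers, and the part of epidermal cells in their change was not tested.

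The cartilage list and the markers of attached tissue were also set side by side. The mean of the cartilage genes ran from 6.09 (median 6.25) to 6.80 at 10 DPA and from 6.29 (median 6.70) to 7.31 at 14 DPA. Of 10 bone genes limma called 0, with a median of 0.11. At an unadjusted p under 0.05, 3 were higher and 1 lower, against 9.05% and 5.83% of all probes. The *t* test called 1 of them higher, and 114 over all probes tested. The bone matrix gene *bglap*, osteocalcin, named after its value was seen, had a difference of −2.01 ± 0.69 that did not pass (adjusted p = 0.145). Genes used by every cell stayed near 0, with medians of 0.01 for 59 cytosolic ribosomal protein genes and −0.01 for 41 proteasome genes.

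**Figure D3:**
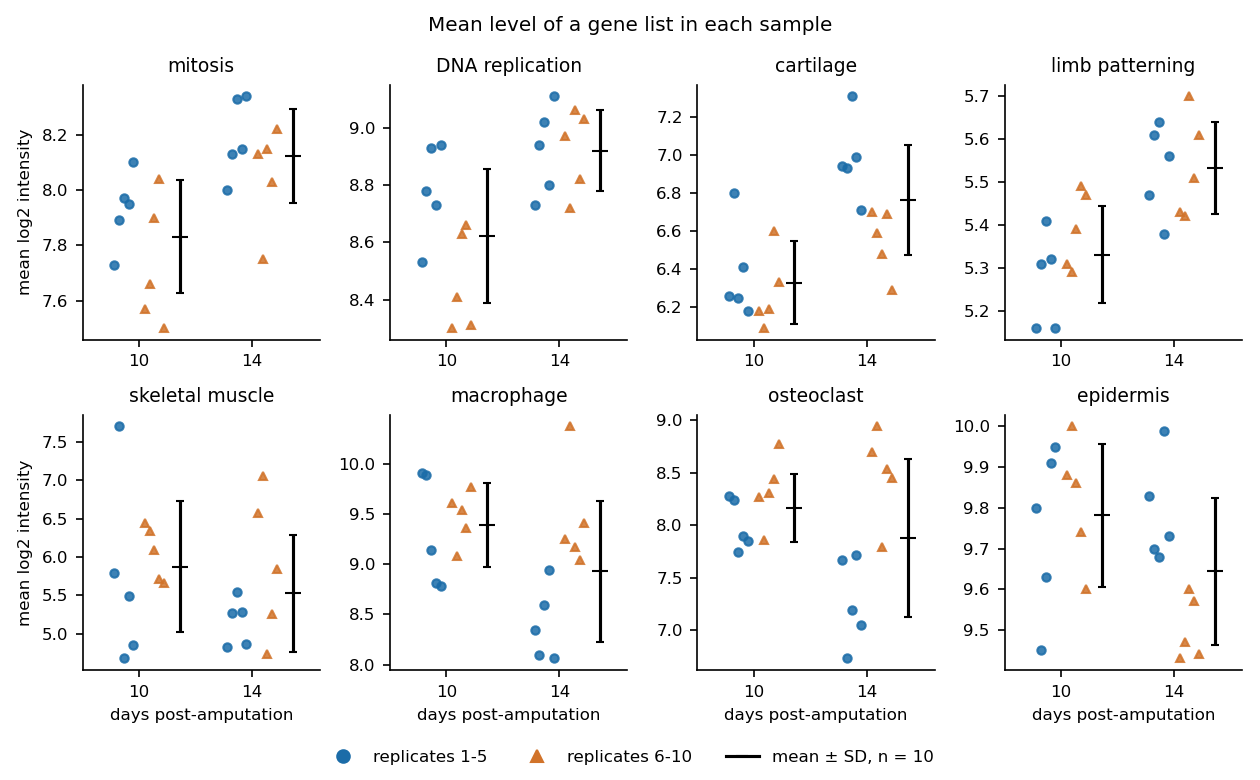
Mean log2 intensity of the measured genes of 8 lists (vertical axes, each with its own range) in every sample at 10 and 14 DPA, with circles for replicates 1 to 5, triangles for replicates 6 to 10 and bars for the mean ± SD of 10 samples. Muscle means range from 4.68 to 7.70 at 10 DPA and from 4.74 to 7.05 at 14 DPA. Osteoclast means range from 7.74 to 8.77 at 10 DPA and from 6.73 to 8.94 at 14 DPA.

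The deposited sample codes split both time points alike, with replicates 1 to 5 under the letter A and replicates 6 to 10 under EF. The sources used here do not explain these letters. Within a time point the 2 sets differed at 644 probes (3.21%) at 10 DPA and 734 probes (3.66%) at 14 DPA by limma's adjusted p. These counts set 5 arrays against 5 and have no fold limit. With no fold limit, the time points differed at 407 probes (2.03%), from 10 arrays against 10. All 130 called probes had the same sign in both sets, against 56.8% of all probes, but they were chosen by their difference over these same arrays, which largely fixes that agreement. Tested alone, replicates 1 to 5 gave 13 higher (0.0649%) and 1 lower (0.00499%) probe, and replicates 6 to 10 gave 78 higher (0.389%) and 117 lower (0.584%). Among these were 4 and 40 of the 130 probes. With the letters as a block in 1 fit, 96 were higher and 72 lower, including all 130.

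Some genes moved in opposite directions in the 2 sets. By adjusted p with no fold limit, the change differed between sets at 37 probes (0.185%). Of these, 36 had opposite signs, 30 of them up in replicates 1 to 5 and down in replicates 6 to 10. These probes were chosen by that difference over the same arrays, which favours opposite signs. Among them were immediate early genes, which cells switch on within minutes of a stimulus, and these were named after their values were seen. *fos*, an AP-1 transcription factor, went from a mean of 7.32 to 10.36 in replicates 1 to 5 and from 9.13 to 7.90 in replicates 6 to 10. The changes were 3.04 and −1.23, and their difference of −4.27 ± 0.50 passed (interaction adjusted p = 3.24e-04).

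*klf2*, a Krüppel-like factor, changed by 1.98 and −1.03 (interaction adjusted p = 2.06e-04) and *dusp1*, a phosphatase of MAP kinases, by 0.64 and −0.42 (2.06e-04). *insig1*, a sensor of cellular sterols, went the other way, by −1.96 and 1.11 (0.00669). Pooled over all 10 replicates, *fos* differed by 0.90 ± 0.53 (adjusted p = 0.464), so that its mean change described neither set. Of 20 immediate early genes, limma called 0 in the pooled comparison, with 1 higher and 1 lower at an unadjusted p under 0.05 (9.05% and 5.83% of all probes) and 0 by the *t* test, and 3 passed the interaction test.

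**Figure D4:**
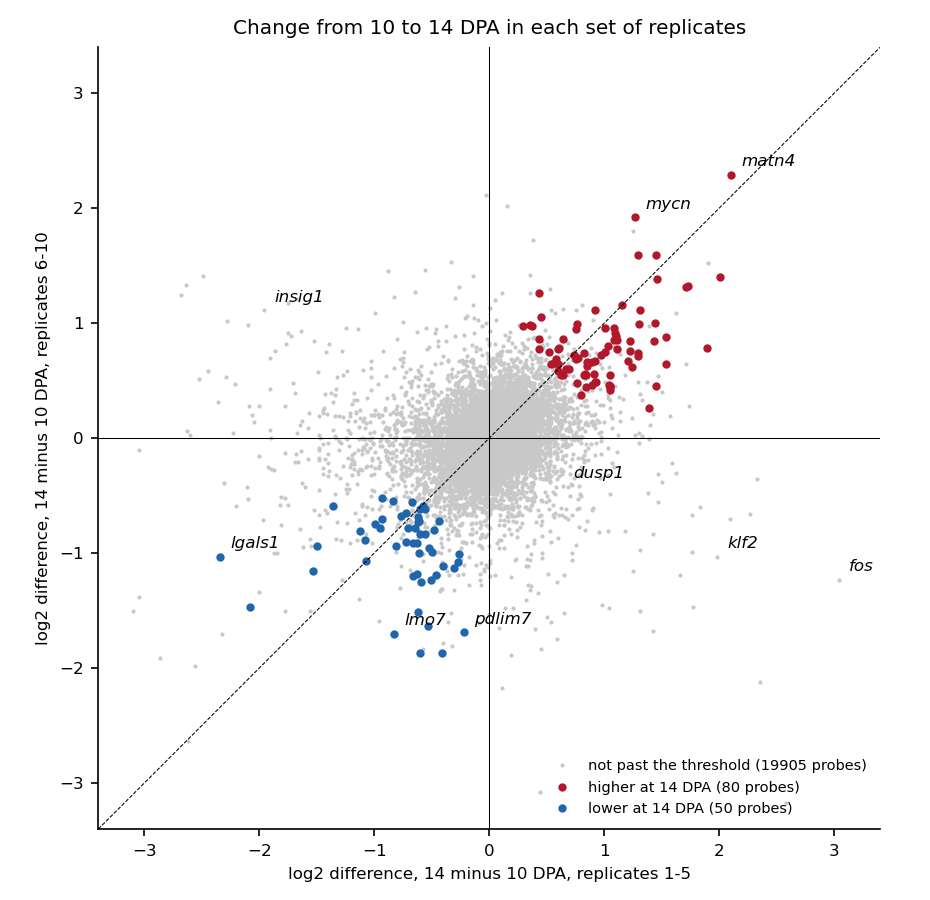
Log2 difference of every probe, 14 minus 10 DPA, in replicates 1 to 5 (horizontal axis) against replicates 6 to 10 (vertical axis). Red and blue points are the 80 higher and 50 lower probes, grey the others, and the dashed line marks equal change. All coloured points lie in the quadrants of equal sign, and *fos* and *klf2* lie far to the lower right and *insig1* to the upper left.

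The arrays of 12 and 16 DPA carry the same code letters and were in neither group. The probes called from 10 to 14 DPA were read in these 19 arrays as a second 4-day interval. Its arrays are separate, but it shares the days from 12 to 14 DPA with the main comparison. Of the 80 probes that rose, 78 were higher at 16 than at 12 DPA (51.8% of all probes were), and 27 (33.8%) passed the same threshold, against 0.339% of all probes. Of the 50 that fell, 49 were lower (48.2% of all probes) and 11 (22.0%) passed, against 0.369%. None passed in the opposite direction.

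Genes that passed in both of these overlapping intervals included outgrowth and patterning genes. From 12 to 16 DPA *mycn* rose by 1.26 (adjusted p = 0.0283), *lhx2* by 1.52 (0.0340), *fgf8* by 1.30 (0.00379), *flrt3* by 1.16 (0.00818), *tbx5* by 1.05 (0.0459) and *gli3* by 0.97 (0.0206). *enpp2*, *adamtsl2*, *fbln1*, *dpp6* and *smc2* also rose, as did *dusp6* (1.22, adjusted p = 0.00379), and *plek2*, *ell2*, *lima1* and *pmepa1* fell. The other mitosis genes named above did not pass there, with 0.20 for *cdc25a*, 0.21 for *cks1b*, 0.35 for *melk* and 0.56 for *kif2c*, nor did *lhx9* (1.20, adjusted p = 0.134) or *cdh2* (1.19, adjusted p = 0.0866). *spry1*, which missed the threshold from 10 to 14 DPA, differed by 0.95 (adjusted p = 8.58e-04). *matn4* and *col2a1* differed by 1.47 and 1.81 and did not pass (adjusted p = 0.262 and 0.0711), with an SD at 12 DPA of 1.91 and 1.57.

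Levels at the neighbouring times place the change in a longer course. At 125 of the 130 probes the 12 DPA mean lay between those of 10 and 14 DPA, against 44.6% of all probes, although the outer means are those by which the probes were chosen. *fgf8* had means of 4.25 ± 0.27, 4.64 ± 0.56, 5.40 ± 0.59, 5.94 ± 0.28 and 6.13 ± 0.55 at 10, 12, 14, 16 and 18 DPA. *matn4* went on from 8.22 ± 0.76 at 14 DPA to 9.97 ± 1.05 at 18 DPA, and *col2a1* from 8.02 ± 1.00 to 9.78 ± 0.78.

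Other genes followed another course. *mycn* stood at 10.17 ± 0.34, 10.44 ± 0.42 and 10.36 ± 0.75 at 14, 16 and 18 DPA. *crabp2* had its highest mean at 14 DPA, 11.46 ± 0.36, with 11.04 ± 0.56 and 10.86 ± 0.47 afterwards. *kit* stood at 9.49 ± 0.49, 8.55 ± 1.00 and 8.51 ± 0.59 at 10, 12 and 14 DPA, so that its mean at 12 DPA was already near that of 14 DPA. *eppk1* went from 10.29 ± 0.39 at 10 DPA to 9.21 ± 0.50 at 14 and 8.54 ± 0.38 at 18 DPA. These later levels were not tested against 14 DPA.

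**Figure D5:**
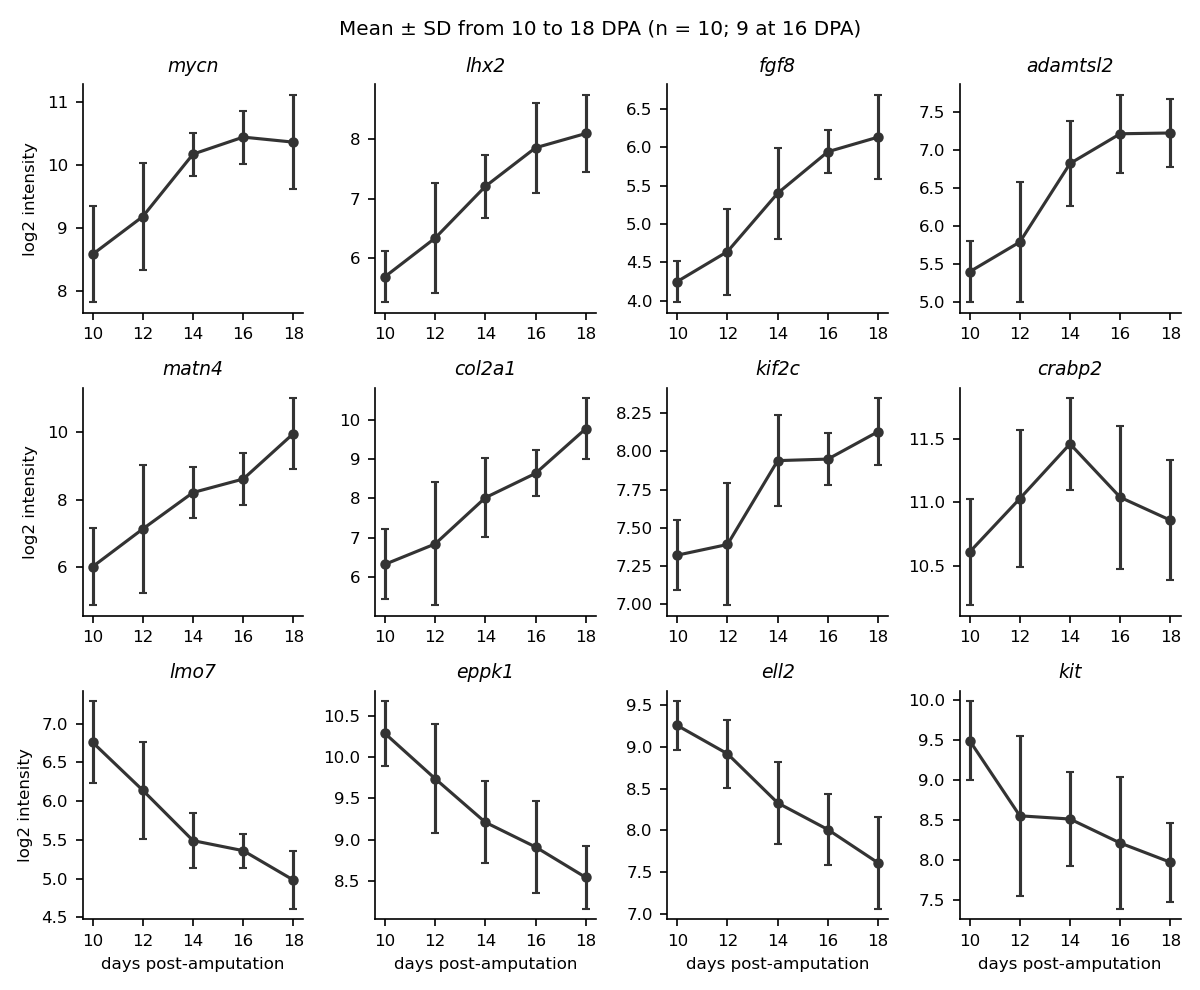
Mean log2 intensity ± SD (vertical axes, each with its own range) of 12 genes at 10, 12, 14, 16 and 18 DPA (n = 10, and 9 at 16 DPA). The means of *fgf8*, *matn4* and *col2a1* go up at each step, *mycn* changes little after 14 DPA, *crabp2* is highest at 14 DPA, and *lmo7*, *eppk1* and *ell2* go down at each step.

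Taken over all probes, the spread between samples was alike at both times. The median SD of a probe was 0.19 at 10 DPA and 0.19 at 14 DPA, and 49.9% of probes had the larger SD at 10 DPA. Single genes departed from this: *mycn* had an SD of 0.76 at 10 DPA and 0.34 at 14 DPA, *fgf8* 0.27 and 0.59, and *pdlim7* 0.73 and 0.30. The osteoclast genes *calb1* (0.79 and 2.01), *ctsk* (0.64 and 1.87) and *acp5* (0.67 and 1.59) spread more at 14 DPA. The SD of list means went from 0.32 to 0.75 for osteoclast and 0.42 to 0.70 for macrophage genes. It went from 0.49 to 0.20 for sterol synthesis and 0.31 to 0.15 for interstitial matrix genes. These SDs were not compared by a test.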

How the data were processed

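The authors hybridized RNA of single limb tips to an Affymetrix *Ambystoma* array and, per the labels' processing notes and the paper, deposited log2 intensities that Affymetrix Expression Console had computed with RMA (versions not given in the sources used here). The deposited log2 values were used unchanged. Of 20,080 probes, 45 controls were left out. Gene symbols come from the platform annotation (10,951 probes with 1 symbol, 9,084 with none), and all 81 called symbols are also in the RefSeq gene table. The probes of *dusp6*, *mmp13* and *krt5*, unnamed in the platform annotation, were named after the study's supplement and added to no list.

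Groups follow the time labels. The test was limma's moderated linear model on the 2 groups alone (version 3.58.1 under R 4.3.3), with the methods' unequal-variance *t* test as an alternative. The 39 gene lists hold 1,776 genes, 1,143 of them measured, 1 probe a gene (the brightest over all arrays). Members and lists were chosen with earlier results of these data known. Named genes are the 12 largest increases and 12 largest decreases past the threshold with equal sign in both sets, up to 4 members past the threshold per list (or its brightest member), genes the study names for FGF signaling, osteoclasts, cartilage and muscle, and tissue checks. Others are marked as chosen after their values were seen. The list members *smc2*, *nr2f1*, *dlx6* and *hoxa13* also lie outside this rule and carry no such mark.

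Alternatives covered the fit, test, thresholds, dim probes (under the 25th percentile, a level of 4.18), normalization, blocks, array weights, each set of replicates and each array left out. Python 3.11.15, numpy 2.4.6, pandas 2.3.3, scipy 1.17.1 and matplotlib 3.10.9 were used. The number of arrays limits the precision.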

Additional observations from a re-analysis of the deposited data

Results flagged for a closer look

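In 266 groups of 10 samples (named genes and list means at 10 or 14 DPA), 15 had 1 sample far from the rest by Dixon's criterion, and chance gives about 1 in 20 such groups. At 10 DPA, *fgf8* was high in replicate 4 (4.95, next 4.33), *smc2* high in replicate 9 (9.65, next 9.19), *bpgm* high in replicate 10 (8.08, next 7.71), *mif* low in replicate 8 (11.69, next 11.94) and *ldha* low in replicate 7 (13.12, next 13.66). The mean of the smooth muscle and pericyte genes was high in replicate 2 (6.52, next 6.01), the sample with the highest skeletal muscle mean.

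At 14 DPA, replicate 9 was high in *lgals1* (5.99, next 4.63) and *fap* (8.23, next 7.63), both of which fell. Replicate 7 was low in *melk* (7.11, next 7.55), in the mean of the chromatin regulator genes (7.37, next 7.48) and in that of the vesicle and Golgi trafficking genes (8.84, next 8.95). Replicate 1 was low in *col1a1* (11.53, next 12.53) and in the mean of the interstitial matrix genes (8.47, next 8.74). *rpl23* was low in replicate 2 (14.56, next 14.64), and the mean of the endoplasmic reticulum stress genes was high in replicate 4 (9.47, next 9.32).

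The change from 10 to 14 DPA differed between the 2 sets of replicates, by limma's interaction term, for *fos* (replicates 6 to 10 minus replicates 1 to 5, −4.27, adjusted p = 3.24e-04), *klf2* (−3.02, adjusted p = 2.06e-04), *dusp1* (−1.06, adjusted p = 2.06e-04), *insig1* (3.08, adjusted p = 0.00669) and *pdlim7* (−1.48, adjusted p = 0.0231). The sources used here do not explain the code letters of the sets, and the cause was not tested.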

How the results depend on the processing

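The count of 130 probes (80 higher, 50 lower) was 137 in 1 fit of all arrays, with 90 of the 130 among them. Calls lost in that fit included those of *matn4*, *lgals1*, *phf6*, *eppk1*, *ell2*, *fap*, *dync1h1*, *lima1*, *melk*, *smc2*, *ogn*, *thbs4*, *col6a1*, *col6a3* and *tgif1*. The count was 125 to 131 under other normalizations, 140 without dim probes and 173 with array weights. It was 31 (21 and 10) with a 2-fold limit, 407 (288 and 119) with none, 197 (114 and 83) by the methods' *t* test at p of 0.01, 94 at p of 0.001 and 60 (38 and 22) after Benjamini-Hochberg adjustment. It was 14 (13 and 1) in replicates 1 to 5, 4 of them among the 130, and 195 (78 and 117) in replicates 6 to 10, 40 of them among the 130. Without the 2 arrays highest in muscle genes, chosen after seeing the data, it was 204 (87 lower).

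Mitosis genes higher (5) were 0 with a 2-fold limit, 16 with none, 3 in the fit of all arrays, 0 in replicates 1 to 5 and 9 without the 2 muscle-rich arrays. Cartilage genes higher (4) were 2 in the fit of all arrays, by the adjusted *t* test and in replicates 6 to 10, and 1 in replicates 1 to 5. Limb patterning genes higher (4) were 2 with a 2-fold limit and by the adjusted *t* test, 0 in replicates 1 to 5 and 1 in replicates 6 to 10. Leaving out 1 array gave 67 to 185 probes (39 to 117 higher, 28 to 80 lower), 2 to 9 mitosis, 2 to 5 cartilage and 2 to 5 limb patterning genes.

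Of 1,177 recomputed list medians, 1,172 stayed within 1 SD of the main value, the SD being that of the list's mean between samples. For lists that varied widely this limit was loose, so the count cannot show that their medians were stable. Skeletal muscle genes had a median of −0.23 and SDs of 0.86 at 10 DPA and 0.76 at 14 DPA. The macrophage median of −0.45 counted as unmoved at −0.91 in replicates 1 to 5 and −0.05 in replicates 6 to 10. Medians past the limit are given next. In replicates 1 to 5 the medians were −0.49 for neutrophil granule, 0.40 for cartilage, 0.31 for basement membrane and collagen VI and 0.13 for FGF signaling genes, and with the mean over a gene's probes that of chromatin regulator genes was 0.01. For the 49 named genes past the threshold, 1298 of 1715 recomputed results kept their call, 417 lost it and 0 turned in sign, and 24 genes passed in all 20 fits that left out 1 array. These genes were counted because they passed over these same arrays, which largely fixes their sign in the recomputed fits.

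With the replicate number as a block, 122 probes passed (74 higher, 48 lower), 99 of them among the 130. Samples of the same number were mostly not alike: of 10 pairs, 4 had deviations correlated above 0.1 and 2 samples correlated best with their own number. The correlations ran from −0.146 to 0.408. This check covers all probes at once and cannot tell whether samples of the same number shared an animal. Where a value moved, the cause was not tested.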
